A study of Mus musculus with 12 samples.

Results

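The p53 pathway target genes are a set of 32 mouse genes. They are p53 itself (Trp53), its feedback regulators, and genes it is known to switch on. These targets act in cell cycle arrest, cell death, stress metabolism and DNA repair. The set was chosen by name, with earlier results of these data known. Its shares and medians set against all tested genes are therefore not an independent test. The set was followed through R1 mouse embryonic stem cells (ESCs) with a knockdown of Smarcd1, which encodes the BAF60a subunit of the SWI/SNF chromatin remodelling complexes. A gene counted as measured when the array had a probe set with only its symbol, and this held for 28 of the 32 genes, out of 19938 such genes in all. Each of the 28 had a single probe set of this kind, and all 28 passed the filter on dim genes that left 12988 genes to test. Trp53, Cdkn1a (p21), Bax and Gdf15 had no such probe set and were not analysed here. The mRNA of p53 itself and of the arrest gene p21 are therefore missing from everything that follows.

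All cells were R1 ESCs grown on mouse embryonic fibroblasts whose division had been blocked with mitomycin. Undifferentiated cells were kept with leukemia inhibitory factor and carried a scrambled control infection (2 arrays) or the Smarcd1 knockdown, as line KD1 (2 arrays) or line KD2 (2 arrays). Differentiated cells had spent 4 days without that factor and with 1 µM retinoic acid, and were scrambled (2 arrays) or KD1 (4 arrays). Retinoic acid, loss of that factor and the time in culture cannot be told apart. A change with retinoic acid below means all of these together. The treatment protocol calls the knockdown and control cells clones, so the arrays replicate a line rather than the knockdown, and an effect of Smarcd1 cannot be told apart from other differences between lines. The labels name biological replicates without saying that cultures were separate, so p-values reflect how far these arrays differ from each other, which may be technical. Values are log2 probe set signals, a change of 1 is a doubling, and changes are given ± SE from limma with a two-sided p adjusted by Benjamini-Hochberg over the 12988 tested genes. A gene is said to rise or fall where that adjusted p was under 0.05.

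p53 is a transcription factor that is made continuously and held low by Mdm2 and Mdm4. When DNA damage or other stress releases it, it binds a consensus element in or near its targets and raises their transcription, and because Mdm2 is one of those targets the response limits itself. Mouse ESCs are known to hold p53 protein at a fairly high level and to arrest poorly after damage, and p53 there is also known to lower pluripotency genes and to favour differentiation. The level of a target's mRNA is not a measure of p53 protein or activity, since most of these genes also answer to other factors.

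The element is a pair of 10-base repeats, each of which is called a p53 consensus half-site. Since the members are linked by this element, their promoters were searched on both strands from 250 bases before to 50 bases after the start of the gene (RefSeq, GRCm38.p6). A window was given for 24 of the 32 genes, 20 of them measured. An exact half-site lay in 11 of the 24, or in 8 of the 20 measured ones, while 9.55% of 27025 genes had one. A pair of half-sites with at most 1 mismatch over 20 bases and at most 1 base between them was found in 5 of the 24, against 0.211% of all genes, and 3 of those 5 were measured. The 3 measured pairs are printed below with up to 20 bases on each side, from 5′ to 3′ on the strand of the gene, with the pair in capitals. The Ccng1 window lies at chr11:40755442-40755501 on the minus strand, the Polk window at chr13:96519378-96519437 on the minus strand, and the Gtse1 window at chr15:85859925-85859984 on the plus strand.
Ccng1: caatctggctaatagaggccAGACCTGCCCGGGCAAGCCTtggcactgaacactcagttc
Polk: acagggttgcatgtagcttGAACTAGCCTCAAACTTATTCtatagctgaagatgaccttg
Gtse1: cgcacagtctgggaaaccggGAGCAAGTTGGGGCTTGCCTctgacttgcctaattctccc
For Mdm2 and Sesn1, which were higher and lower respectively in KD1 than in scrambled cells after retinoic acid, the window held a single exact half-site, shown here in capitals. They lie at chr10:117710915-117710964 on the minus strand (Mdm2) and chr10:41887246-41887295 on the plus strand (Sesn1).
Mdm2: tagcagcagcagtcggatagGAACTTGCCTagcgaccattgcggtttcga
Sesn1: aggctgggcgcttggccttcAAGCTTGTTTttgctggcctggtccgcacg
The other measured genes with an exact half-site but no pair were Ddit4l, Ei24 and Aen. A match is only a run of letters, and known p53 elements of several members lie in introns outside these windows.

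As a check of the labels, the targeted gene was looked at. Smarcd1 read 8.67 and 8.68 on the scrambled ESC arrays and at 7.75 and 7.78 on the KD1 arrays. Of the arrays labelled KD2, replicate 1 was at 8.56, near the scrambled level, and replicate 2 at 7.16, so the first goes against its label. The pair of KD2 arrays also correlated at 0.918 over genes, against 0.984 or more within every other group, and array weights in limma gave each of them 0.137 against at least 1.165 elsewhere. After retinoic acid Smarcd1 was 8.84 and 8.64 in scrambled cells and 6.36 to 6.61 in KD1. All fits pool the spread over 12 arrays, so the KD2 arrays widen the error of every comparison, and results are given with and without them.

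**Figure D1:**
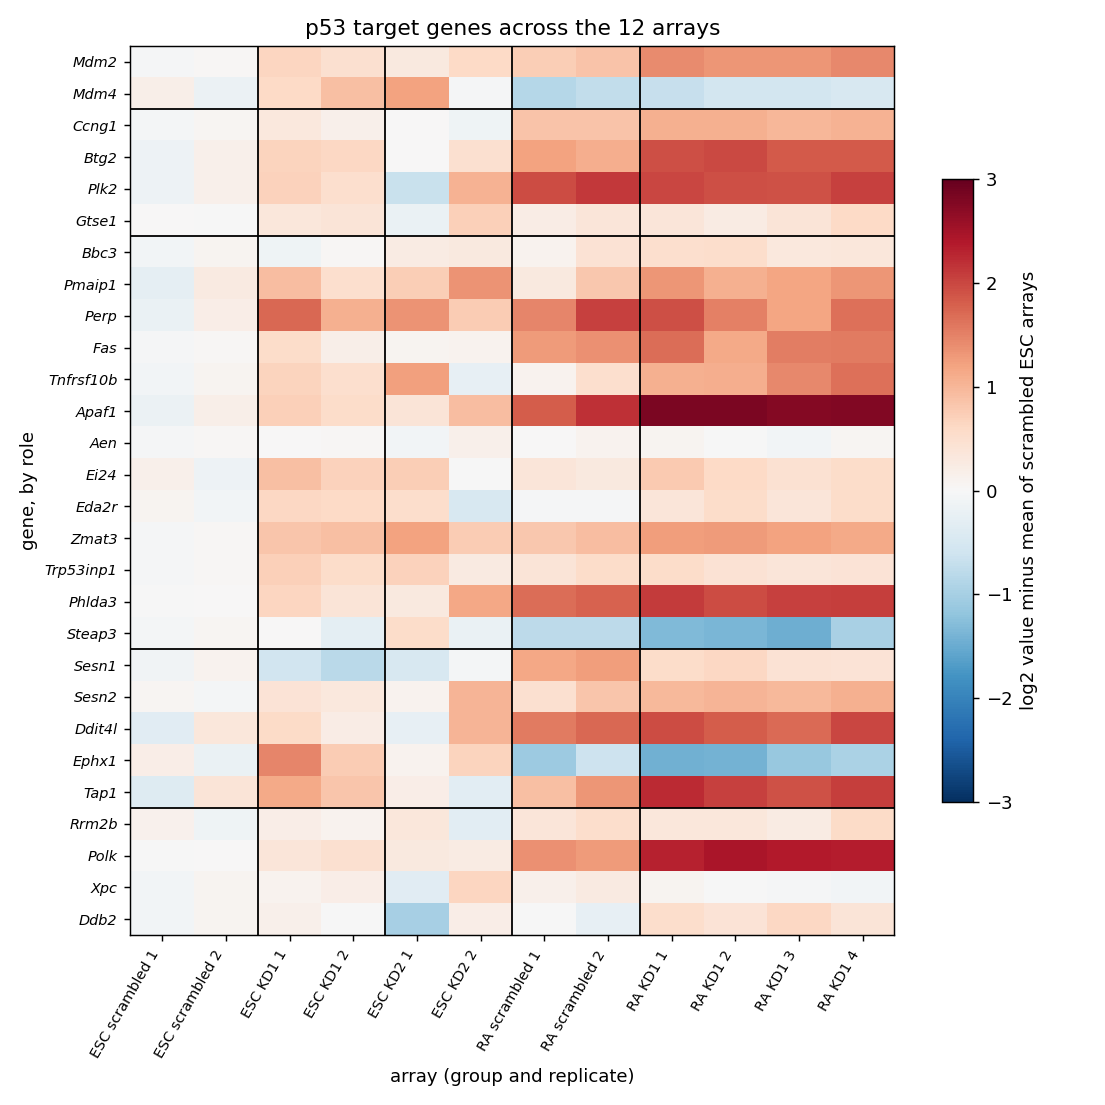
Log2 value of each of the 28 measured p53 target genes (rows, in order of role) on each of the 12 arrays (columns), minus the mean of the scrambled ESC arrays; red is higher, blue lower, and black lines part roles and groups. Most rows are red in the KD1 ESC columns, Sesn1 is blue there, and the KD2 columns differ from each other, as for Plk2 at 8.10 and 9.81.

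In undifferentiated cells, KD1 had higher levels of 2 of the 28 genes than scrambled cells, and lower levels of none. They were Perp and Zmat3, both filed under cell death. Perp, a membrane protein of desmosomes that takes part in p53-dependent death, read 7.39 and 7.80 on the scrambled arrays and 9.31 and 8.67 on the KD1 arrays. Zmat3, a zinc finger protein that binds RNA, read 6.93 and 7.02 in scrambled and 7.81 and 7.88 in KD1. Both KD1 arrays lay above both scrambled arrays for each gene. The change was 1.39 ± 0.31 for Perp (limma adjusted p = 0.0417) and 0.87 ± 0.17 for Zmat3 (limma adjusted p = 0.0218), or 2.63-fold and 1.82-fold. Over all tested genes 0.909% were called higher and 1.41% lower. The median change of the 28 was 0.54, with 25 above 0, while the median of all tested genes was -0.00. At an unadjusted p under 0.05 stood 14 of the 28, against 12.8% of all tested genes. Both KD1 arrays lay above both scrambled arrays for 21 of the 28, against 25.5% of all tested genes, and below them for 1, Sesn1, against 27.2%. With 2 arrays a group such a gap is common, so where one is given for a gene below it only describes the arrays. These arrays come from bulk RNA, in which fewer cells of a type and less RNA per cell cannot be told apart.

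The count of 2 rests on few arrays. It was 0 without any 1 of the 4 scrambled or KD1 ESC arrays. When both KD2 arrays were left out of the fit, the changes stayed as they were and their errors shrank. Then 14 of the 28 genes rose and 1 fell, against 3.21% and 4.93% of all tested genes. That fit still pools its spread with the retinoic acid arrays. A fit to the 4 compared ESC arrays alone called 1 of the 28, and the share of all tested genes it called is not given here. The values of the genes called without the KD2 arrays are given next by role, and their p-values are from limma in that fit.

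Both measured feedback genes were among the 14. Mdm2, the ubiquitin ligase that marks p53 for destruction, read 9.00 and 9.07 in scrambled ESCs and 9.69 and 9.52 in KD1. Mdm4, its partner that masks the activation domain of p53, read 9.17 and 8.83 in scrambled and 9.60 and 9.90 in KD1. The KD1 arrays lay above the scrambled arrays for both genes. The change was 0.57 ± 0.11 for Mdm2 (limma adjusted p = 0.012) and 0.75 ± 0.15 for Mdm4 (limma adjusted p = 0.0118). With the KD2 arrays in the fit the adjusted p was 0.0936 and 0.315.

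Of the 4 measured arrest genes, Btg2 and Plk2 were among the 14. Btg2, an antiproliferative protein that recruits the mRNA deadenylation machinery, read 7.06 and 7.36 in scrambled ESCs and 7.88 and 7.83 in KD1, a change of 0.65 ± 0.13 (limma adjusted p = 0.0108). Plk2, a polo-like kinase of centriole duplication, read 8.61 and 8.92 against 9.45 and 9.28, a change of 0.60 ± 0.13 (limma adjusted p = 0.0208). The KD1 arrays were the higher ones for both. Ccng1 (cyclin G1), which works with the phosphatase PP2A on Mdm2, differed by 0.23 ± 0.14 in the fit to all arrays, and Gtse1, a microtubule-binding protein that restrains p53, by 0.36 ± 0.25. Neither was called in either fit.

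The death genes were the largest role, with 13 measured and 11 above 0. Besides Perp and Zmat3, those called without the KD2 arrays were Apaf1, Ei24, Eda2r, Trp53inp1 and Phlda3. Apaf1, the scaffold of the caspase-activating apoptosome, read 7.00 and 7.34 in scrambled ESCs and 7.88 and 7.72 in KD1 (0.63 ± 0.15, limma adjusted p = 0.0282). Ei24, a membrane protein of the endoplasmic reticulum, read 9.65 and 9.36 against 10.40 and 10.19 (0.79 ± 0.14, limma adjusted p = 0.00788). Eda2r, a receptor of the tumour necrosis factor family, read 9.38 and 9.22 against 9.91 and 9.89 (0.60 ± 0.12, limma adjusted p = 0.0108). For each of these the KD1 arrays were the higher ones. Trp53inp1, a stress protein that promotes p53 activity and autophagy, read 10.40 and 10.49 against 11.15 and 11.00 (0.63 ± 0.12, limma adjusted p = 0.0098). Phlda3, which competes with Akt for membrane lipids, read 7.46 and 7.47 against 8.10 and 7.84 (0.51 ± 0.12, limma adjusted p = 0.0263). The groups were again apart. The BH3-only genes did not pass: Pmaip1 (Noxa) read 6.11 and 6.67 against 7.31 and 6.89, and Bbc3 (Puma) read 6.42 and 6.59 against 6.38 and 6.55. The death receptors did not pass either, with Tnfrsf10b at 7.69 and 7.87 against 8.45 and 8.28, and Fas at 3.92 and 3.99 against 4.51 and 4.14. Fas lay under percentile 40 of the named genes on all 6 ESC arrays, and passed the filter through the 6 retinoic acid arrays only. Steap3, a metal reductase of the iron pathway, and Aen, a nuclease, differed by -0.13 ± 0.17 and 0.02 ± 0.11 without the KD2 arrays.

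Sesn1 was the one gene that fell. It encodes a sestrin, a stress protein that restrains mTORC1, and read 5.70 and 5.92 in scrambled ESCs and 5.24 and 5.01 in KD1, with no overlap (-0.69 ± 0.13, limma adjusted p = 0.0102 without the KD2 arrays and 0.0715 with them). Its relative Sesn2 was at 8.09 and 7.96 against 8.43 and 8.34 (0.36 ± 0.13 without the KD2 arrays), and was not called in either fit. Ephx1, a microsomal epoxide hydrolase, read 7.25 and 6.87 against 8.52 and 7.82 (1.11 ± 0.26, limma adjusted p = 0.0235 without the KD2 arrays). Tap1, which carries peptides to MHC class I, read 6.15 and 6.93 against 7.68 and 7.37 (0.98 ± 0.24, limma adjusted p = 0.0288). Both lay higher on the KD1 arrays, and the scrambled arrays of Tap1 were themselves far apart. Ddit4l, an mTORC1 inhibitor, overlapped between the groups at 6.12 and 6.80 against 7.03 and 6.69. Of the 4 repair genes only Polk, a translesion DNA polymerase, was called, at 6.38 and 6.40 against 6.76 and 6.87 (0.42 ± 0.11, limma adjusted p = 0.0358). The DNA damage sensors Xpc and Ddb2 and the ribonucleotide reductase subunit Rrm2b differed by 0.07 to 0.15 and were not called.

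**Figure D2:**
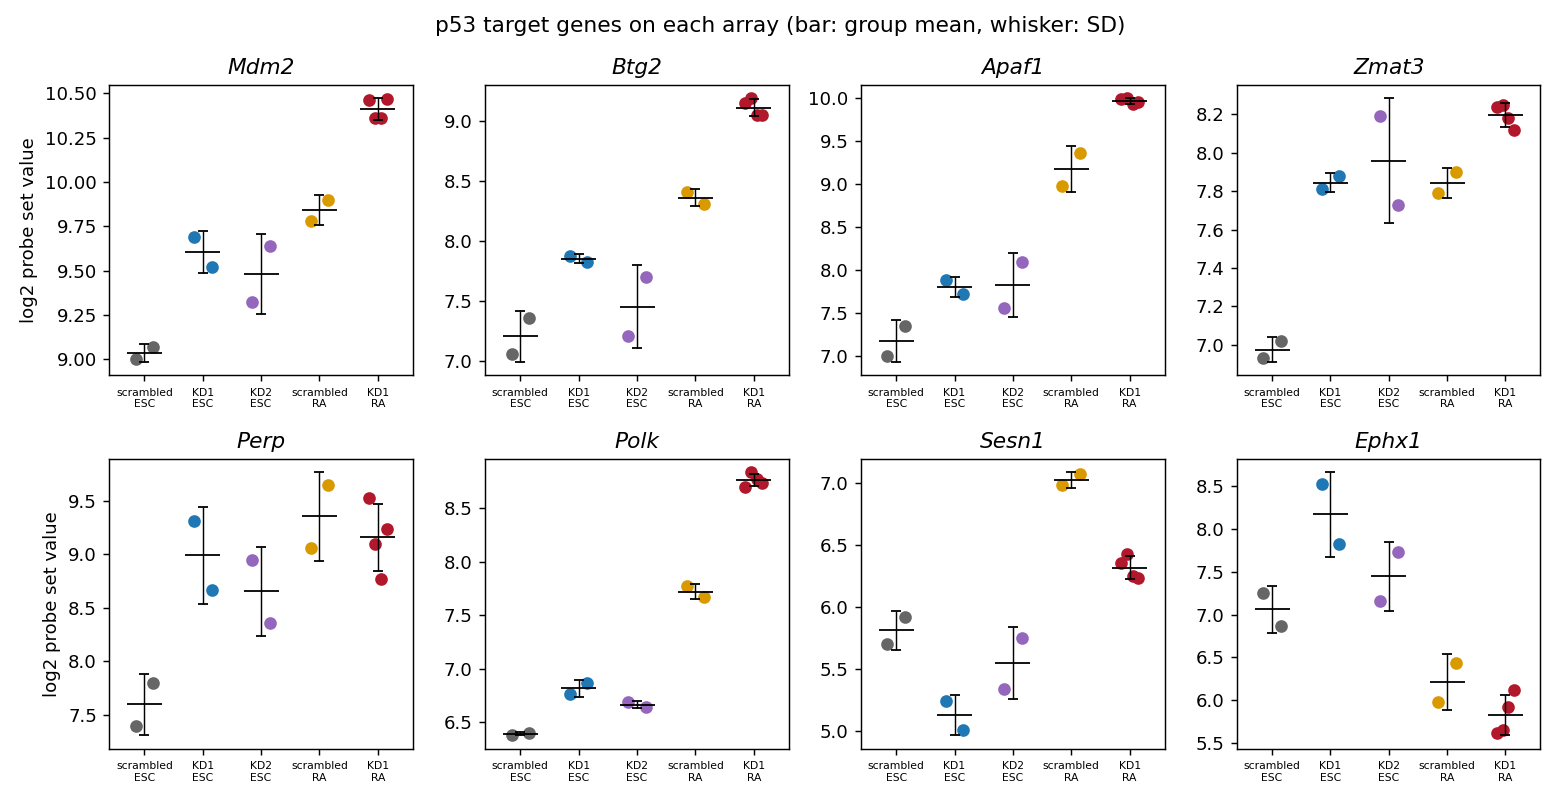
Log2 value of 8 p53 target genes on each array (points) in the 5 groups, with the group mean (bar) and SD (whisker); each panel has its own vertical axis, which does not start at 0. Zmat3 lies at 6.93 and 7.02 in scrambled ESCs and at 7.73 or above in every other group, and Sesn1 is the one panel in which both KD1 groups lie below their scrambled group on every array.

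KD2 showed 2 called genes against scrambled ESCs, and both rose: Zmat3 at 8.19 and 7.73 (0.98 ± 0.17, limma adjusted p = 0.00413) and Pmaip1 at 7.13 and 7.73 (1.04 ± 0.27, limma adjusted p = 0.0291). Pmaip1 makes a small protein that blocks the survival factor Mcl1. Over all tested genes 2.88% were called higher and 7.15% lower. The median of the 28 was 0.27, with 24 above 0, against -0.02 for all tested genes. Zmat3 was called in both lines, but the lines were set against the same 2 scrambled arrays and so are not independent.

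The KD2 arrays disagreed on most members. Plk2 read 8.10 on replicate 1 and 9.81 on replicate 2, while the scrambled arrays lay between them at 8.61 and 8.92. Tnfrsf10b ran the other way, at 9.00 and 7.54, and so did Mdm4 at 10.20 and 8.97 and Eda2r at 9.82 and 8.83. Phlda3 was at 7.76 and 8.62, Sesn2 at 8.14 and 9.04, and Ddb2 at 5.08 and 6.28. With replicate 2 alone, whose Smarcd1 was low, 11 members rose and 1 fell (Eda2r), against 19.3% and 15.1% of all tested genes. The largest rises there were Pmaip1 (1.34 ± 0.28, limma adjusted p = 0.00416), Phlda3 (1.16 ± 0.15, limma adjusted p = 0.000464) and Plk2 (1.04 ± 0.16, limma adjusted p = 0.0011). With replicate 1 alone, whose Smarcd1 was near scrambled, 7 rose and 3 fell (Ddb2, Plk2 and Sesn1), against 7.73% and 22.8% of all tested genes. Zmat3 was the only member called higher with each array alone. A lone array is assumed to vary like the other groups. In the fit to both KD2 arrays, the 450 tested genes of chromosome 14, which holds Tnfrsf10b, had a median of 0.27 and the 417 of chromosome X, which holds Eda2r, of -0.24, and the part of these shifts in both genes' values was not tested.

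No member was called between KD2 and KD1 by limma, where 0.508% of all tested genes were called higher and 2.19% lower. At an unadjusted p under 0.05 stood 5 of the 28, against 16.4% of all tested genes. The median was -0.13, and the largest difference was Tap1, at 6.73 and 6.22 in KD2 against 7.68 and 7.37 in KD1 (-1.05 ± 0.27, limma adjusted p = 0.0603). Each KD2 array taken alone gave more calls. With replicate 2 alone 4 members were higher and 5 lower than in KD1, against 20.8% and 14.2% of all tested genes, and with replicate 1 alone 1 was higher and 5 lower, against 2.68% and 13.4%.

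From ESCs to the retinoic acid arrays, 15 of the 28 genes rose in scrambled cells and 2 fell, against 22.4% and 16.7% of all tested genes. In KD1 13 rose and 3 fell, against 29.4% and 21.4%. These rises and the medians include Fas, which passed the filter only through the retinoic acid arrays. Its place among the rises is therefore not a finding. The median change of the 28 was 0.61 in scrambled and 0.49 in KD1 cells, and that of all tested genes 0.06 in both. Without the KD2 arrays the counts were 16 and 3 in scrambled (31.7% and 22.8% of all tested genes), and 17 and 3 in KD1 (36.6% and 27.4%). Of the genes that rose in both lines, Apaf1, Plk2, Phlda3, Ddit4l and Polk rose most, and Ephx1 and Steap3 fell in both.

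Apaf1 went from 7.00 and 7.34 to 8.98 and 9.36 in scrambled cells, and from 7.88 and 7.72 to between 9.93 and 10.00 in KD1. Its change was 2.00 ± 0.20 in scrambled (limma adjusted p = 2.01e-05) and 2.17 ± 0.18 in KD1 (limma adjusted p = 2.08e-06), about 4.00-fold and 4.49-fold. No retinoic acid array came near an ESC array for this gene. Polk went from 6.38 and 6.40 to 7.77 and 7.67 in scrambled (1.33 ± 0.14, limma adjusted p = 2.3e-05), and from 6.76 and 6.87 to between 8.70 and 8.84 in KD1 (1.95 ± 0.12, limma adjusted p = 2.5e-07). Both lines stood well apart from their ESCs, and the KD1 arrays were higher still.

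Among the arrest genes, Plk2 rose by 2.03 ± 0.39 in scrambled cells (to 10.73 and 10.88) and by 1.37 ± 0.34 in KD1 (to between 10.67 and 10.82). Btg2 rose by 1.15 ± 0.18 and 1.26 ± 0.16, and Ccng1, at 10.88 to 11.25 on the scrambled and KD1 ESC arrays and 11.79 to 12.01 after retinoic acid, by 0.86 ± 0.14 and 0.81 ± 0.12. For each of these the retinoic acid arrays lay above the ESC arrays of the same line. Gtse1 differed by 0.30 ± 0.25 and 0.04 ± 0.21 and was not called. Of the feedback pair, Mdm2 rose by 0.80 ± 0.16 in scrambled and 0.81 ± 0.13 in KD1, and Mdm4 fell in KD1 from 9.60 and 9.90 to between 8.31 and 8.51 (-1.32 ± 0.26, limma adjusted p = 0.00146). In scrambled cells Mdm4 was at 9.17 and 8.83 before and 8.15 and 8.25 after retinoic acid and missed the threshold (-0.81 ± 0.30, limma adjusted p = 0.055), which it passed without the KD2 arrays (limma adjusted p = 0.000873).

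Further death genes rose in both lines. Phlda3 went from 7.46 and 7.47 to 9.14 and 9.23 in scrambled (1.72 ± 0.23) and from 8.10 and 7.84 to between 9.42 and 9.56 in KD1 (1.54 ± 0.20). Fas, which makes a death receptor, went from 3.92 and 3.99 to 5.23 and 5.32 (1.32 ± 0.19) and from 4.51 and 4.14 to between 5.09 and 5.64 (1.11 ± 0.17). Since Fas passed the filter only through the retinoic acid arrays, its rise is a condition of its being tested. Zmat3 and Trp53inp1 rose in scrambled cells by 0.87 ± 0.17 and 0.47 ± 0.17, and Bbc3 rose in KD1 by 0.46 ± 0.14. Steap3 fell in both, from 6.43 and 6.56 to 5.70 on each scrambled array (-0.79 ± 0.24), and from 6.51 and 6.21 to between 5.03 and 5.53 in KD1 (-1.15 ± 0.21).

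The stress and metabolism genes moved in both directions. Ddit4l rose by 1.65 ± 0.34 in scrambled and 1.47 ± 0.30 in KD1 cells, and Sesn1 by 1.22 ± 0.18 and 1.19 ± 0.15. Sesn2 rose by 0.66 ± 0.24 and 0.65 ± 0.21, and Tap1 by 1.11 ± 0.27 and 1.09 ± 0.23. Ephx1 fell, with a change of -0.85 ± 0.29 in scrambled cells (limma adjusted p = 0.0348) and of -2.34 ± 0.25 in KD1 (limma adjusted p = 1.44e-05). Its level went from 7.25 and 6.87 to 5.98 and 6.44 in scrambled, and from 8.52 and 7.82 to between 5.62 and 6.12 in KD1. Of the repair genes only Polk was called in both fits and both lines. The calls of Sesn2 and Trp53inp1 in scrambled cells were close to the threshold (limma adjusted p = 0.0471 and 0.044) and each was lost under several other settings.

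**Figure D3:**
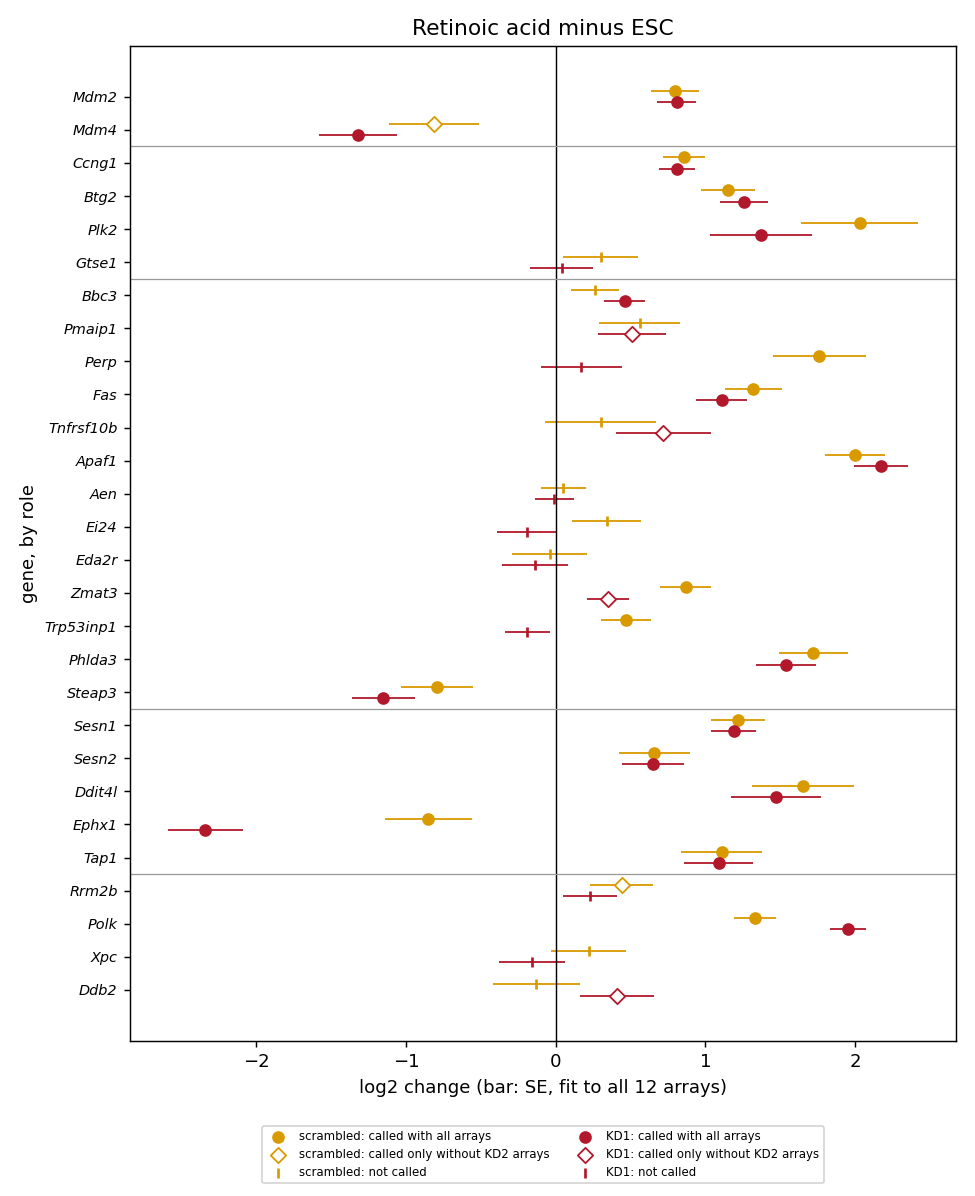
Log2 change from ESCs to retinoic acid (horizontal axis, bar is SE) for the 28 genes in scrambled (yellow) and KD1 (red) cells; filled circles were called with all arrays, diamonds only without the KD2 arrays, and ticks in neither fit. The colours lie close together for Apaf1, Mdm2, Sesn1 and Tap1 and apart for Perp, at 1.76 and 0.17, and Ephx1, at -0.85 and -2.34.

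After retinoic acid, KD1 had higher levels than scrambled cells of Polk, Tnfrsf10b, Tap1, Apaf1, Btg2 and Mdm2, and a lower level of Sesn1. These were 6 genes up and 1 down of 28, against 11.2% and 11.5% of all tested genes. The median of the 28 was 0.23, with 19 above 0, against -0.02 for all tested genes. Without the KD2 arrays 12 were higher and 2 lower, against 18.5% and 18.6% of all tested genes. The share of members called lower was therefore under the background in both fits.

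Mdm2 read 9.78 and 9.90 on the scrambled arrays after retinoic acid and 10.46, 10.36, 10.36 and 10.47 on the KD1 arrays (0.58 ± 0.13, limma adjusted p = 0.00901). Btg2 read 8.41 and 8.31 against 9.15, 9.19, 9.05 and 9.05 (0.75 ± 0.16, limma adjusted p = 0.0047). Apaf1 read 8.98 and 9.36 against 9.99, 10.00, 9.93 and 9.95 (0.80 ± 0.18, limma adjusted p = 0.00648). In each case all 4 KD1 arrays lay above both scrambled arrays. Tnfrsf10b, the mouse TRAIL receptor, read 7.89 and 8.28 against 8.84, 8.86, 9.21 and 9.43 (1.00 ± 0.32, limma adjusted p = 0.0437). It lies on chromosome 14, whose 450 tested genes had a median of 0.18 in this comparison, and the part of that shift in its value was not tested. Tap1 read 7.44 and 7.86 against 8.78, 8.59, 8.46 and 8.61 (0.96 ± 0.23, limma adjusted p = 0.0104). Polk had the smallest adjusted p of the members, at 7.77 and 7.67 against 8.70, 8.84, 8.77 and 8.74 (1.04 ± 0.12, limma adjusted p = 8.52e-05), or 2.06-fold. Sesn1 was the reverse case, at 6.98 and 7.07 against 6.35, 6.43, 6.25 and 6.23 (-0.71 ± 0.15, limma adjusted p = 0.00552). All 4 KD1 arrays lay above both scrambled arrays for 15 of the 28 genes, against 26.5% of all tested genes, and below them for 3 (Sesn1, Steap3 and Xpc), against 27.5%.

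Further genes were called only without the KD2 arrays. Pmaip1 read 6.68 and 7.21 against 7.71, 7.46, 7.57 and 7.72 (0.67 ± 0.19, limma adjusted p = 0.02). Ddb2, a sensor of ultraviolet damage in nucleotide excision repair, read 6.05 and 5.82 against 6.59, 6.49, 6.68 and 6.45 (0.62 ± 0.11, limma adjusted p = 0.00156). Eda2r, at 9.26 and 9.27 against 9.67 to 9.85, differed by 0.49 ± 0.10 (limma adjusted p = 0.00297). The KD1 arrays were the higher ones for all of these. Zmat3, Sesn2 and Phlda3 were higher by 0.32 to 0.35, and Steap3 was lower, at 5.70 on both scrambled arrays against 5.03 to 5.53 in KD1 (-0.49 ± 0.15, limma adjusted p = 0.0226). The count of 7 was 3 without scrambled replicate 1 after retinoic acid and 4 without scrambled replicate 2. The call of Tnfrsf10b was lost under cyclic loess scaling.

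**Figure D4:**
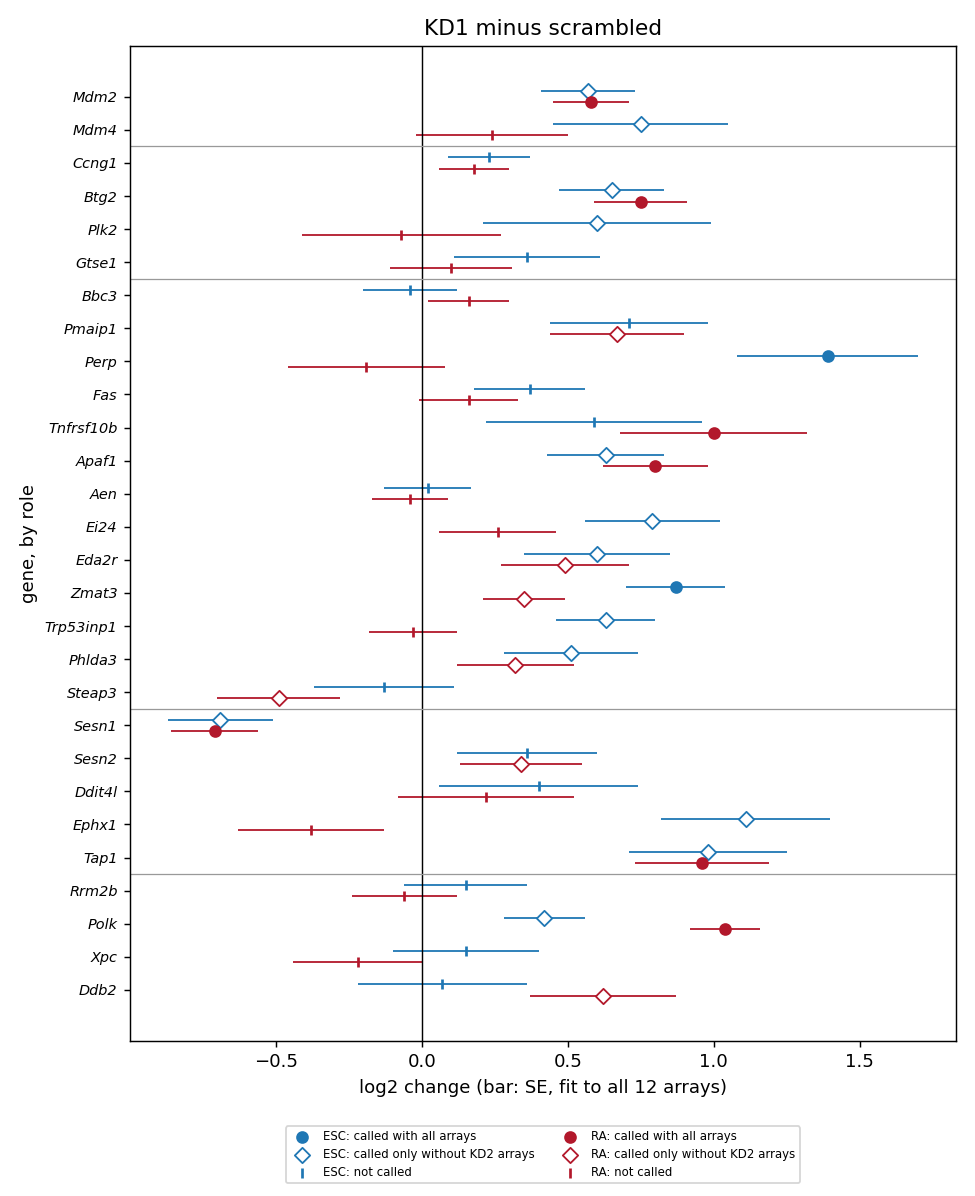
Log2 difference of KD1 from scrambled (horizontal axis, bar is SE) for the 28 genes in ESCs (blue) and after retinoic acid (red); filled circles were called with all arrays, diamonds only without the KD2 arrays, and ticks in neither fit. Sesn1 lies at -0.69 and -0.71 and Mdm2 at 0.57 and 0.58, whereas Perp and Ephx1 lie above 1 in ESCs and below 0 after retinoic acid.

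The comparison of KD1 with scrambled in ESCs and the one after retinoic acid share no array. Both compare lines of the same labels, so they are not independent for differences between lines. Side by side, Mdm2 differed by 0.57 and 0.58, Btg2 by 0.65 and 0.75, Apaf1 by 0.63 and 0.80, Tap1 by 0.98 and 0.96, and Sesn1 by -0.69 and -0.71. Other genes were less alike. Polk differed by 0.42 and 1.04 and Tnfrsf10b by 0.59 and 1.00. The estimate was smaller after retinoic acid for Zmat3 (0.87 and 0.35), Ei24 (0.79 and 0.26) and Mdm4 (0.75 and 0.24). For Tnfrsf10b, Ei24 and Mdm4 the interaction described below was called neither with all arrays nor without the KD2 arrays. For Polk and Zmat3 it was called only without the KD2 arrays. Plk2 (0.60 and -0.07) and Trp53inp1 (0.63 and -0.03) were above 0 in ESCs only. Whether the difference itself changed with retinoic acid was tested by the interaction of the line with the treatment. No member had a higher interaction and 2 had a lower one, Perp and Ephx1, against 4.27% and 3.61% of all tested genes. Perp read 9.06 and 9.65 in scrambled cells after retinoic acid and 9.53, 9.10, 8.77 and 9.24 in KD1, which overlap, so that the ESC difference was not seen there (interaction -1.59 ± 0.41, limma adjusted p = 0.0371). Ephx1 read 5.98 and 6.44 against 5.62, 5.65, 5.92 and 6.12, which overlap too (interaction -1.49 ± 0.38, limma adjusted p = 0.0333). Without the KD2 arrays Plk2 (-0.66 ± 0.18), Zmat3 (-0.51 ± 0.14) and Trp53inp1 (-0.66 ± 0.16) joined them and Polk had a positive interaction (0.62 ± 0.14, limma adjusted p = 0.0134), making 1 higher and 5 lower against 10.2% and 8.28% of all tested genes. Both calls were lost when either scrambled ESC array was left out. For Mdm2 the interaction was 0.01 ± 0.21 and for Sesn1 -0.03 ± 0.23, and differences of the size of these errors could not be seen.

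Aen lay between 8.19 and 8.43 on all 12 arrays and was called in no comparison, with or without the KD2 arrays. Gtse1, whose promoter holds one of the pairs of half-sites printed above, was called in no comparison with all 12 arrays, nor were Ei24, Eda2r, Rrm2b, Xpc and Ddb2. Rrm2b ran from 5.09 to 5.99 and Xpc from 5.91 to 6.91, with the extremes of Xpc on the KD2 arrays. The other measured genes with a printed pair, Ccng1 and Polk, both rose with retinoic acid in both lines, and only Polk differed between the lines.

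The wider pathway was read from further lists of genes. Of 20 tested regulators of p53, 1 was lower in KD1 ESCs, the kinase Hipk2 (-0.83 ± 0.18, limma adjusted p = 0.0315), and 0 were higher. Of all tested genes 1.41% were called lower there and 0.909% higher. After retinoic acid 2 were lower in KD1, Sirt1 (-0.76 ± 0.18), a deacetylase of p53, and Trp53bp1 (-0.92 ± 0.22), a DNA break protein that binds p53, and 0 were higher, where 11.5% of all tested genes were called lower and 11.2% higher. Without the KD2 arrays 7 were lower there and 1 was higher, against 18.6% and 18.5%. Of 26 other p53 targets tested, limma called 0 in KD1 ESCs. At an unadjusted p under 0.05 stood 7 of the 26, against 12.8% of all tested genes. The median of the 26 was 0.35 with 21 above 0, against -0.00 for all tested genes. Without the KD2 arrays 3 were higher in KD1 ESCs (Dram1, Epha2 and Slc19a2), against 3.21% of all tested genes. After retinoic acid 5 were higher in KD1 and 4 lower, against the same 11.2% and 11.5% of all tested genes. The largest were Dram1 (3.74 ± 0.21, limma adjusted p = 4.25e-07), a lysosomal membrane protein of autophagy, the cytokine Lif (1.81 ± 0.22), the adenylate kinase Ak1 (-1.32 ± 0.22) and the thiamine transporter Slc19a2 (1.12 ± 0.22).

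p53 also lowers cell cycle genes through p21 and the DREAM repressor complex. Of 15 tested genes of this kind, the kinase Cdk1 was lower in KD1 ESCs (-0.85 ± 0.16, limma adjusted p = 0.0198), in KD2 ESCs (-0.76 ± 0.16) and in KD1 after retinoic acid (-0.54 ± 0.14). The other 14 were not called in either ESC comparison with all arrays, Mcm5 was lower in KD1 ESCs without the KD2 arrays, and the list's median was -0.10 in KD1 ESCs. After retinoic acid Mcm5, of the replicative helicase, was lower in KD1 (-0.71 ± 0.18) and Mybl2, a cell cycle transcription factor, higher (0.99 ± 0.16). Of all tested genes, 1.41% were called lower in KD1 ESCs and 7.15% in KD2 ESCs. After retinoic acid 11.5% were called lower in KD1 and 11.2% higher. Of 13 tested BCL2 family and caspase genes outside the set, limma called 0 in either line of ESCs. At an unadjusted p under 0.05 stood 0 in KD1 and 1 in KD2, against 12.8% and 24.1% of all tested genes. After retinoic acid Casp8, the caspase that works below death receptors, was higher in KD1 (1.29 ± 0.30, limma adjusted p = 0.00843). The survival gene Bcl2 (-0.94 ± 0.12) and the BH3-only genes Bmf (-1.09 ± 0.16) and Bcl2l11 (-0.80 ± 0.25) were lower. That made 1 higher and 3 lower of the 13, against 11.2% and 11.5% of all tested genes.

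Markers of cell types also moved with these comparisons. The summed signal of 8 ESC markers, on a log2 scale, was 13.90 to 14.06 in scrambled and 14.29 to 14.41 in KD1 ESCs, and 10.34 to 10.88 on all arrays after retinoic acid. Of these 8, Dppa5a and Pou5f1 were higher and Sox2 was lower in KD1 than in scrambled cells after retinoic acid. Of all tested genes 11.2% were called higher there and 11.5% lower. Feeder and fibroblast markers (12 genes, of which Lum and Fap were under percentile 40 in every group) summed to 11.41 to 11.65 in scrambled ESCs, 10.22 to 11.12 in KD1 and 10.44 to 10.73 in KD2. After retinoic acid they were 13.10 to 13.47 in scrambled and 12.13 to 12.71 in KD1. The largest signals in these sums were Acta2 (12.07 and 12.30 in scrambled) and Tagln (10.86 and 10.89). The list did not move as 1: 10 of its genes were tested. From ESCs to retinoic acid, 5 of the 10 rose and 2 fell (Postn and Thy1) in scrambled cells, against 22.4% and 16.7% of all tested genes. In KD1, 3 rose and 5 fell, against 29.4% and 21.4%. Set against scrambled, 1 of the 10 was lower in KD1 ESCs, 3 in KD2 ESCs and 5 in KD1 after retinoic acid. Of all tested genes 1.41%, 7.15% and 11.5% were called lower in these comparisons. Extraembryonic endoderm markers (10 genes) summed to 8.85 to 9.19 in scrambled and 9.08 to 9.56 in KD2 ESCs, where Cubn was under percentile 40, and to 10.31 to 10.32 in KD1, with 4 of 10 higher than in scrambled. After retinoic acid they were 11.01 on both scrambled arrays and 13.73 to 14.15 in KD1, with 9 of 10 higher. Of all tested genes, 0.909% were called higher in KD1 ESCs and 11.2% in KD1 after retinoic acid. Neural markers went the other way after retinoic acid, at 9.61 to 9.62 in scrambled and 8.33 to 8.81 in KD1, with Neurog2 under percentile 40 in both and Dcx in KD1. Trophectoderm markers were at 9.76 to 9.81 and 8.83 to 9.35, with Eomes and Elf5 under percentile 40 in both. Of the 7 trophectoderm genes tested, only Gata3 was called in that comparison, as lower, and the median change was 0.00. The part of these cell type differences in the levels of the p53 targets was not tested.

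**Figure D5:**
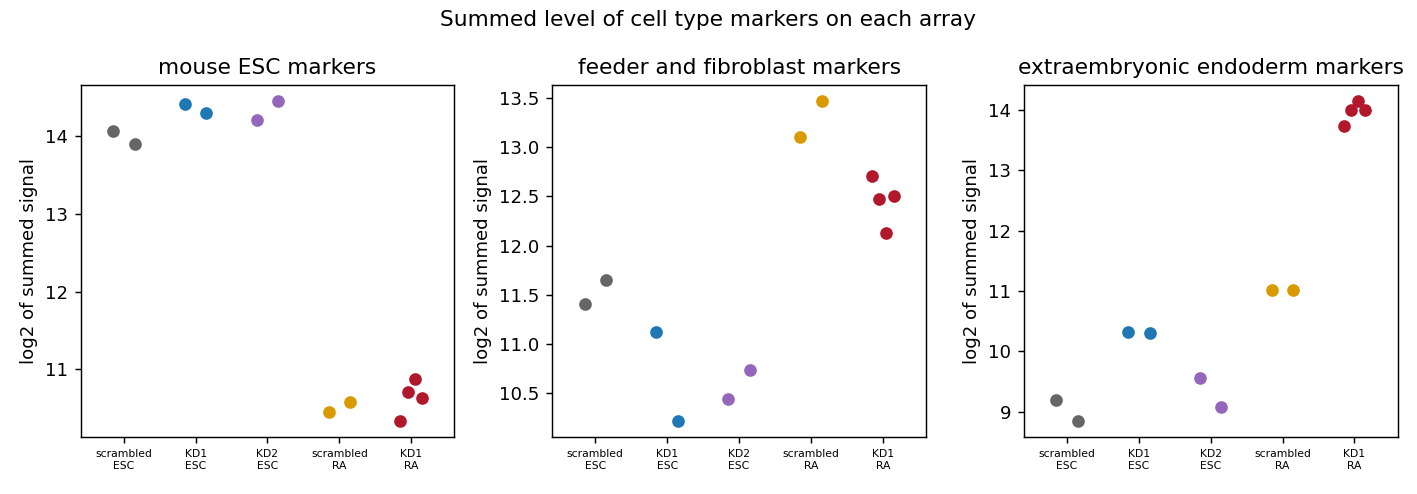
Log2 of the summed signal of ESC (8 genes), feeder and fibroblast (12) and extraembryonic endoderm (10) markers on each array (points) in the 5 groups; each panel has its own vertical axis, which does not start at 0. In ESCs the KD1 and KD2 arrays lie below scrambled for feeder markers, and after retinoic acid the 4 KD1 arrays lie above 13.7 for endoderm markers against 11.01 in scrambled.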

How the data were processed

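Expression was deposited as log2 values per probe set for 12 Affymetrix mouse gene arrays, made by the authors with RMA, per the submitters' processing notes. The RMA version and settings were not given in the sources used here. Medians of the arrays lay between 4.73 and 5.09, and no scaling was added. Groups follow the sample titles. Symbols came from the platform's gene table and promoters from RefSeq. A gene needed a probe set with 1 symbol (of several, the one with the highest mean) and, to be tested, 2 or more arrays above percentile 40 of all named genes. One mean per group was fitted in limma (version 3.58.1, R 4.3.3) on all arrays together, with 7 residual and 4.58 prior degrees of freedom and 7 contrasts. Calls needed a Benjamini-Hochberg adjusted p under 0.05, two-sided. The members, gene lists and marker lists were chosen with earlier results of these data known. All 32 members are accounted for, and of each other list up to 4 called genes with the largest change per comparison could be named. Alternatives covered the filter, scaling, variance trend, array weights, arrays fitted, probe set choice, threshold, a replicate block and leaving out arrays. The fit for KD1 against scrambled after retinoic acid was also run on simulated data, with independent noise of equal spread in all groups. That simulation does not cover arrays of unequal spread, such as the KD2 arrays, or arrays that are not independent. Precision is limited by the number of arrays. Other software was Python 3.11.15 with pandas (2.3.3), numpy (2.4.6) and, for figures, matplotlib (3.10.9).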

Additional observations from a re-analysis of the deposited data

Results flagged for a closer look

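Perp and Ephx1 are listed because limma called their interaction, the change with retinoic acid in the difference of KD1 from scrambled cells. The interaction was -1.59 for Perp (limma adjusted p = 0.0371) and -1.49 for Ephx1 (limma adjusted p = 0.0333). Of all tested genes 3.61% had a lower interaction. The calls of Perp and Ephx1 were lost when either scrambled ESC array was left out. Among the 4 KD1 arrays after retinoic acid, none of the 28 genes had an array far enough from the others to be listed. That rule looks for a single array apart and cannot list a split of the arrays into pairs. Some marker genes outside the set split in this way. Nanog read 4.14 and 4.71 on replicates 1 and 2 and 7.14 and 6.94 on replicates 3 and 4. Sox7 read 8.58 and 8.69 against 10.32 and 10.01.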

How the results depend on the processing

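Of 113 gene changes called with all arrays, without both KD2 arrays or with a single KD2 array, those whose direction reversed under an alternative were all in the comparisons that use KD2 and are given below. Counts of called members are given first, and the cause of their moves was not tested. For KD1 against scrambled in ESCs (2 called), it was 15 without both KD2 arrays, 15 with array weights, 1 with no filter on dim genes, 1 from the compared arrays only and 0 at an adjusted p under 0.01, and 0 to 15 when arrays were left out in turn. For KD2 against scrambled (2) it was 6 with cyclic loess, 1 at an adjusted p under 0.01, 0 with array weights and 0 from the compared arrays only, and 1 to 12 when arrays were left out. KD2 against KD1 (0) ranged from 0 to 9 when arrays were left out. For KD1 against scrambled after retinoic acid (7) it was 14 without both KD2 arrays, 14 with array weights, 13 from the compared arrays only and 4 with KD1 replicates 1 and 2 alone, and 3 to 14 when arrays were left out. For the interaction (2) it was 6 without both KD2 arrays, 6 from the compared arrays only, 5 with array weights, 1 with cyclic loess, 0 at an adjusted p under 0.01 and 0 with KD1 replicates 1 and 2 or 3 and 4 alone, and 0 to 6 when arrays were left out. The counts for retinoic acid in scrambled (17) and in KD1 (16) stayed within 1.5 times under every alternative. The share of all tested genes called moved with the setting too. For KD1 in ESCs it went from 0.909% higher and 1.41% lower to 3.21% and 4.93% without both KD2 arrays. After retinoic acid it went from 11.2% and 11.5% to 18.5% and 18.6%. For the other settings the share is not given here, so a move of these counts is not a result about the members.

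Against scrambled ESCs, the log2 difference of KD2 without its replicate 1 and without its replicate 2 was -0.03 and 1.20 for Mdm4, 1.04 and -0.66 for Plk2, 0.72 and -0.20 for Gtse1, -0.24 and 1.21 for Tnfrsf10b, -0.01 and 0.74 for Ei24, -0.47 and 0.52 for Eda2r, 1.02 and -0.25 for Ddit4l, 0.65 and -0.35 for Xpc, and 0.21 and -0.99 for Ddb2. Against KD1, in the same order, it was -0.78 and 0.45 for Mdm4, 0.45 and -1.26 for Plk2, 0.36 and -0.56 for Gtse1, -0.83 and 0.63 for Tnfrsf10b, 0.65 and -0.21 for Phlda3, -0.06 and 0.68 for Steap3, 0.65 and -0.24 for Sesn2, 0.50 and -0.49 for Xpc, 0.14 and -1.06 for Ddb2, and -0.61 and 0.80 for Smarcd1. Eda2r against scrambled was also -0.05 without scrambled replicate 2, and Xpc against KD1 was -0.05 without KD1 replicate 1.

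Deviations of same-numbered arrays from their group means correlated at -0.183 to 0.243, highest for the scrambled and KD1 ESC arrays. In a group of 2 arrays the deviations mirror each other, so whether the numbers pair the samples cannot be told from these values. With the replicate number as a block (replicate block), the counts were 0 for KD1 in ESCs, 1 for KD2, 3 for KD1 after retinoic acid and 0 for the interaction. The share of all tested genes called with the block is not given here. Numbers 3 and 4 occur only among the retinoic acid KD1 arrays, so this fit draws nothing from those arrays, and the last 2 counts combine the block with that loss.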
